A study of Bos taurus with 2 samples.

Results

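The genes described here encode the isoforms of 4 enzymes of glycolysis and gluconeogenesis, namely phosphofructokinase (*PFKM*, *PFKL* and *PFKP*), enolase (*ENO1*, *ENO2* and *ENO3*), lactate dehydrogenase (*LDHA* and *LDHB*) and fructose bisphosphatase (*FBP1* and *FBP2*). They were chosen by name, as every array probe whose transcript accession belongs to one of these 10 symbols. All 10 genes were found, with 33 probes of 43652, and all 10 are among the 10637 genes that had both a symbol and a value. The muscle isoform of each enzyme (*PFKM*, *ENO3*, *LDHA* and *FBP2*) was set against the other isoforms of the same step.

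The muscle was the longissimus thoracis (LT) of Japanese Black fetal calves, taken at about 8.5 months in utero (day 260 ± 8.3). The pregnant cows of the low-nutrition (LN) group received 60% of their nutritional requirement and those of the high-nutrition (HN) group 120% during gestation, with the time before pregnancy included, and all cows were inseminated with male-sorted semen of the same sire. RNA of 4 fetuses per group was pooled, for which the lightest fetuses (by bodyweight, BW) of the LN group and the heaviest of the HN group were taken, so that diet and the selection by BW cannot be told apart. Each pool was measured on 1 Agilent bovine array, so there was no replicate check and no p-value was possible between the pools. All differences are given as log2 LN/HN of quantile-normalized signals, where a negative value means a lower signal in the LN pool. Of the spots, 74.5% were well above background for HN by the software's mark, and 70.9% for LN.

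Phosphofructokinase commits glucose to glycolysis, and fructose bisphosphatase runs the reverse reaction on the way to glucose and glycogen. Enolase makes phosphoenolpyruvate near the end of the pathway, and lactate dehydrogenase converts pyruvate and lactate into each other. Each enzyme is assembled from subunits encoded by several genes. *PFKM*, *ENO3* and *FBP2* are the forms of striated muscle, and *LDHA* is the subunit that prevails in fast muscle. *PFKL* is named for the liver and *PFKP* for platelets, *ENO1* is the widespread form that *ENO3* replaces as muscle fibres mature, and *ENO2* is the form of neurons. *LDHB* is the subunit of heart and of oxidative fibres, and *FBP1* is the form of the gluconeogenic liver and kidney.

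The study used PCR primers for 4 of the 10 genes, each on the same RefSeq transcript that the array probes of that gene are named for. Those sequences are shown, 5′ to 3′, because they tie these isoforms to given transcripts. No PCR value is used, and the sequences of the array probes were not used here.
PFKM forward: caaggacaatctgcaaagaagcc
PFKM reverse: tatagatgccaacacgaaccacag
ENO3 forward: ctagactcagagcccagcgaag
ENO3 reverse: ccatctcttagttccagagcttca
ENO2 forward: gtcatcaaggacaagtatggcaag
ENO2 reverse: atatttgccatcgcggtaaaactc
FBP2 forward: ggaaagatttacagcctcaacgag
FBP2 reverse: tacaggaagatccctccatagaca

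The muscle isoforms of all 4 enzymes had a lower mean signal in the LN pool than in the HN pool. The other isoforms were divided, since *PFKL*, *PFKP* and *LDHB* were higher in the LN pool and *ENO1*, *ENO2* and *FBP1* were lower. From the lowest to the highest value, the log2 LN/HN was -0.65 for *FBP2*, -0.48 for *FBP1*, -0.42 for *ENO2*, -0.27 for *ENO3*, -0.26 for *ENO1*, -0.25 for *PFKM*, -0.14 for *LDHA*, 0.16 for *PFKP*, 0.21 for *LDHB* and 0.34 for *PFKL*. Neighbours in this order had overlapping probe values, with 1 exception. Between *LDHA* and *PFKP* the means were 0.30 apart, and no probe of a gene on one side reached the values of the other side.

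**Figure D1:**
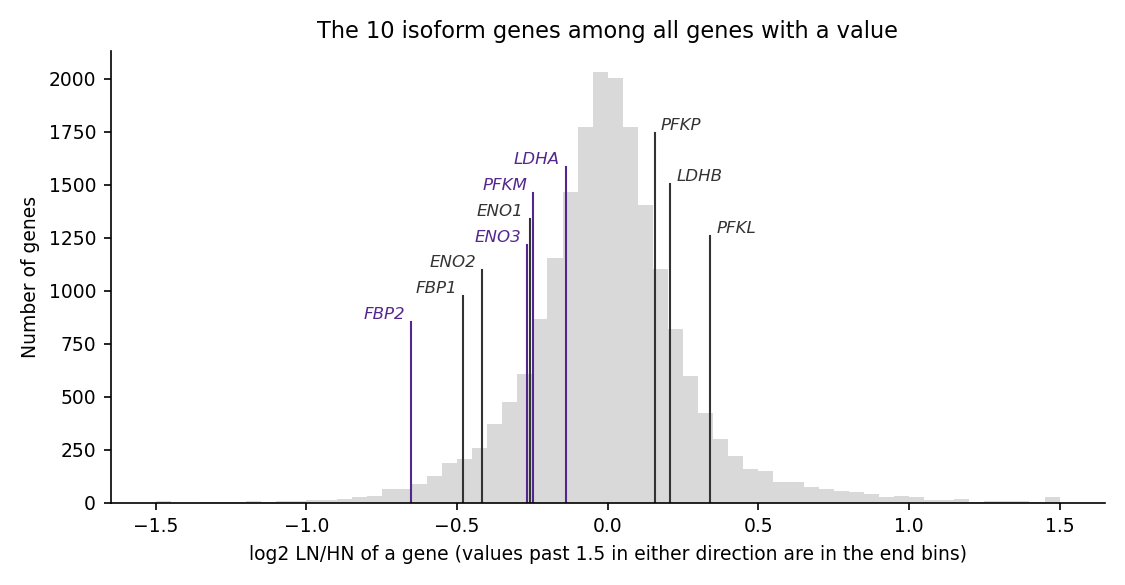
Number of genes (y axis) by log2 LN/HN (x axis) for all 19554 genes with a value, with a vertical line for each of the 10 isoform genes (muscle isoforms in purple, other isoforms in black; the heights of the lines have no meaning). *FBP2* lies farthest to the left at -0.65 and *PFKL* farthest to the right at 0.34.

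A log2 LN/HN of 0.32 in size, in either direction, was used to call a gene and is termed the fold threshold. Of the 10 genes, 4 passed it, *FBP2*, *FBP1* and *ENO2* lower and *PFKL* higher. Over the whole array 18.0% of 19554 genes were past it in either direction, 9.11% lower and 8.85% higher. This share differed with brightness, at 6.84% of the genes of a mean log2 signal of 8 or more (4.06% lower and 2.79% higher) and 24.8% of the dimmer genes (12.2% lower and 12.6% higher). Of the 7 isoform genes in the brighter class, *FBP2* and *PFKL* were past the fold threshold, and of the 3 in the dimmer class, *ENO2* and *FBP1* were. *PFKL* lay at the edge of the brighter class, with a mean log2 signal of 7.92 for HN and 8.26 for LN. The count of all genes, 1731 higher and 1781 lower, shifted to 1191 and 2693 under scaling to the 75th percentile and to 1462 and 2260 without normalization. The count of isoform genes, 1 higher and 3 lower, was 0 and 3 with the 75th percentile and 1 and 3 without normalization. In direction alone, the 10 isoform genes were the same under every setting tried.

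The error of a single measurement was taken from 42 probes printed in several spots, whose log2 ratio had an SD of 0.085 between spots. The error that the scanner software attached to the isoform probes was larger, at 10% of the signal for most of them, which corresponds to an SD of 0.20 for a log2 ratio. Neither error covers the variation between fetuses. Probes of the same gene are not replicates of a condition, and signals of different probes are not compared as levels.

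For phosphofructokinase, the muscle isoform was lower and both other isoforms were higher in the LN pool. The 6 probes of *PFKM* had log2 signals of 14.99, 13.30, 11.64, 10.02, 9.36 and 9.32 for HN. In the same order, they had 14.96, 13.18, 11.33, 9.62, 8.93 and 9.13 for LN. Every probe was thus lower in the LN pool, with log2 LN/HN values of -0.03, -0.12, -0.31, -0.40, -0.42 and -0.19, and the mean log2 LN/HN was -0.25 ± 0.16 (SD between 6 probes), a 1.19-fold lower signal. The 3 probes of *PFKL* went from 11.08 to 11.49, from 6.80 to 7.15 and from 5.87 to 6.13. All of them were higher in the LN pool, with a mean log2 LN/HN of 0.34 ± 0.08 (SD between 3 probes), a 1.27-fold higher signal. *PFKL* was past the fold threshold by a small margin, and its value was 0.31 when the 75th percentile was subtracted and 0.26 after the normexp background correction. For *PFKP*, the probes went from 7.97 to 8.14 and from 7.08 to 7.23. Its mean log2 LN/HN was 0.16 ± 0.01 (SD between 2 probes), short of the fold threshold.

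The lowest probe of the other phosphofructokinases (0.15) lay 0.18 above the highest probe of *PFKM*, so that their probe values did not overlap. How often the probes of any pair of genes on the array lie apart was not counted. *PFKM* differed from *PFKL* by -0.59 and from *PFKP* by -0.40. Set against the mean of both, the difference was -0.49 on the log2 scale, a 1.41-fold difference in the ratio of the muscle isoform to the others. Such a difference within the arrays is not altered by a shift common to all probes. It ranged from -0.51 to -0.32 over the other settings.

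**Figure D2:**
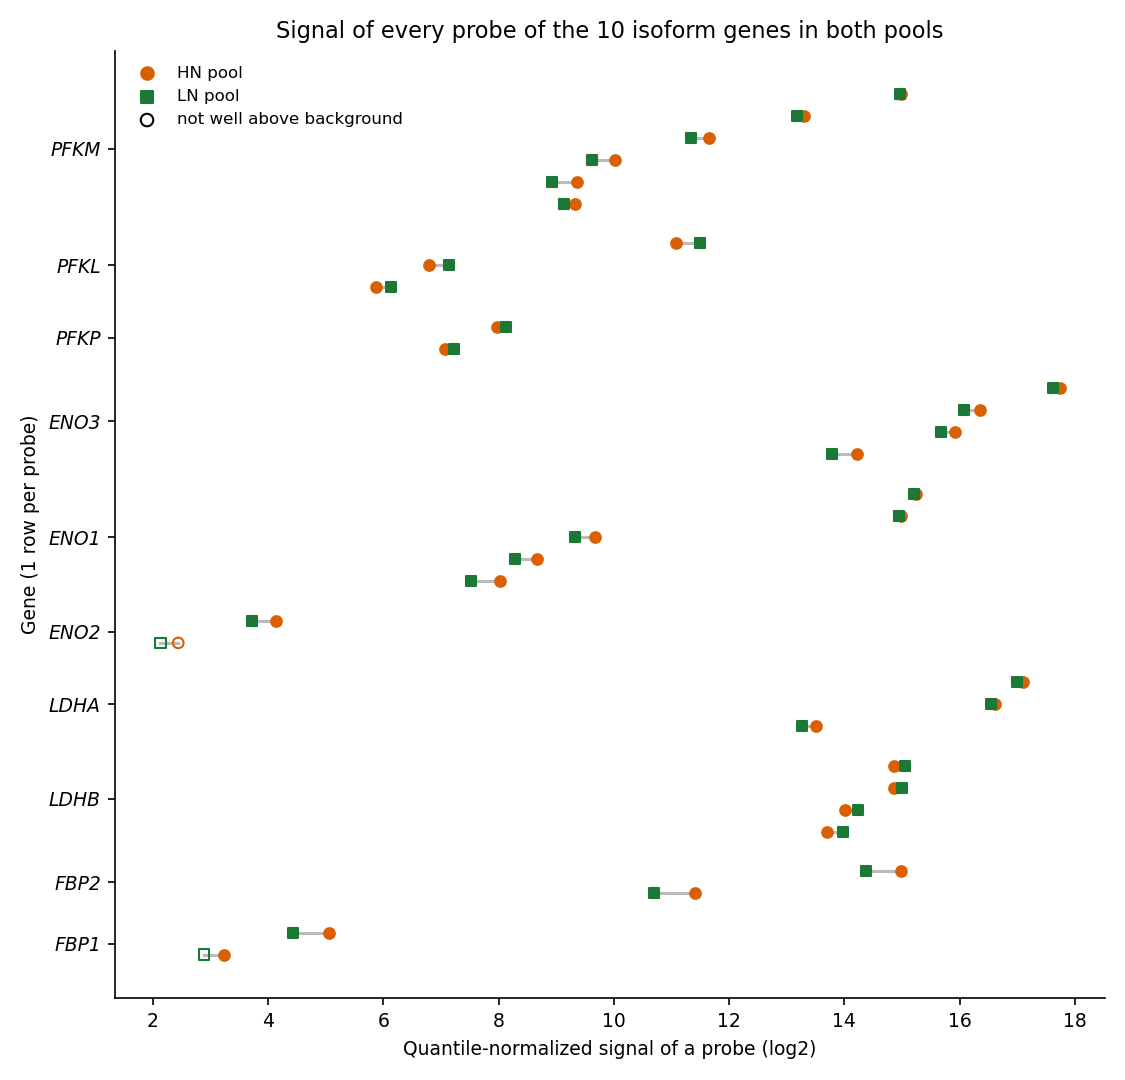
Quantile-normalized log2 signal (x axis) of each of the 33 probes of the 10 isoform genes in the HN pool (orange circles) and the LN pool (green squares), with 1 row per probe, a grey line joining both pools and open symbols where the signal was not well above background. The LN symbols lie to the left of the HN symbols in all 15 probes of *PFKM*, *ENO3*, *LDHA* and *FBP2* and to the right in all 9 probes of *PFKL*, *PFKP* and *LDHB*.

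For lactate dehydrogenase, the pattern was the same in direction, with the muscle subunit lower and the heart subunit higher in the LN pool. The 3 probes of *LDHA* had log2 signals of 17.10, 16.62 and 13.51 for HN, against 17.01, 16.54 and 13.26 for LN. The mean log2 LN/HN was -0.14 ± 0.10 (SD between 3 probes), with values of -0.09, -0.08 and -0.25. Those of the pair of brightest probes were within the SD of 0.085 between spots or barely above it, so the lower value of *LDHA* rested mainly on its dimmest probe. The 4 probes of *LDHB* had 14.86, 14.85, 14.01 and 13.70 for HN, against 15.05, 15.00, 14.24 and 13.97 for LN. Each of them was higher in the LN pool, by 0.14 to 0.27, with a mean log2 LN/HN of 0.21 ± 0.05 (SD between 4 probes), a 1.15-fold higher signal.

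Neither subunit of lactate dehydrogenase was past the fold threshold on its own. Their probe values did not overlap, with a gap of 0.22 between the highest probe of *LDHA* and the lowest of *LDHB*. The difference between the subunits was -0.35, a 1.27-fold difference in their ratio. Under the other settings it lay between -0.40 and -0.28.

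For enolase, by contrast, all isoforms were lower in the LN pool. The 4 probes of *ENO3* went from 17.74 to 17.63, from 16.35 to 16.08, from 15.93 to 15.68 and from 14.22 to 13.78, and the mean log2 LN/HN was -0.27 ± 0.14 (SD between 4 probes). The 5 probes of *ENO1* had 15.24, 14.99, 9.67, 8.66 and 8.02 for HN, against 15.21, 14.94, 9.32, 8.29 and 7.53 for LN. These probes split, since the pair with the highest signals had a log2 LN/HN of -0.04 and -0.05 and the other 3 had -0.35, -0.37 and -0.49. The mean of *ENO1* was -0.26 ± 0.21 (SD between 5 probes), and with the median of its probes in place of the mean it was -0.35, past the fold threshold.

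*ENO2* was measured by 1 of its 2 probes, because the other was not well above background on either array. The measured probe had a low signal, 4.14 for HN against 3.72 for LN, and its log2 LN/HN was -0.42, past the fold threshold. The call was lost after the normexp background correction, which gave -0.19. *ENO3* differed from *ENO1* by -0.01 and from *ENO2* by 0.15, and its probe values overlapped with those of both. Against the mean of both, the difference was 0.07, with a range of -0.01 to 0.13 over the other settings. A difference between the enolase isoforms was therefore not detectable on these arrays.

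For fructose bisphosphatase, both isoforms were lower in the LN pool, and *FBP2* had the lowest value of all 10 genes. Its 2 probes went from 14.98 to 14.38 and from 11.40 to 10.69. The mean log2 LN/HN was -0.65 ± 0.08 (SD between 2 probes), a 1.57-fold lower signal, and 1.45% of all genes with a value lay below it. *FBP2* stayed past the fold threshold in every setting, between -0.67 and -0.60, and was the only one of the 10 genes for which all settings gave the call.

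*FBP1*, which lies next to *FBP2* in the gene order of the bovine assembly ARS-UCD2.0, had low signals. One of its probes went from 5.05 to 4.44, which is a log2 LN/HN of -0.61. The other had 3.24 in the HN pool and was not well above background on the LN array. Its LN signal there was 2.88, just above the lowest signal of any probe well above background (2.82), and the measured value of -0.35 is treated as a limit. The mean of both was -0.48, and after the normexp background correction it was -0.15. The difference between *FBP2* and *FBP1* was -0.17, and it ranged from -0.46 to 0.01 over the other settings, so that its sign was not settled.

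**Figure D3:**
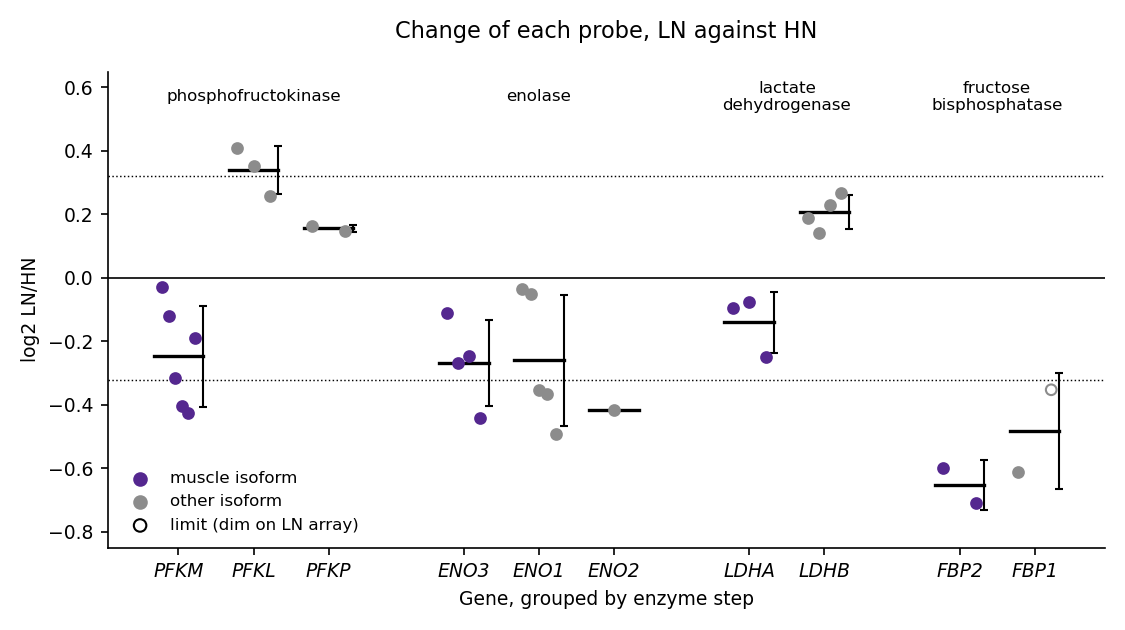
Log2 LN/HN (y axis) of each probe of the 10 isoform genes, grouped by enzyme step, with muscle isoforms in purple and other isoforms in grey; horizontal bars are the mean of a gene, error bars the SD between its probes, the open symbol a limit, and dotted lines mark the fold threshold. The muscle isoform and the others separate for phosphofructokinase and lactate dehydrogenase and overlap for enolase and fructose bisphosphatase.

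The 4 steps thus fell into a pair in which the probes of the muscle isoform and of the others lay apart and a pair in which all isoforms were lower. This split is a description only, since the share of gene pairs on the array with probes that lie apart was not counted. Counted by probe, all 15 probes of the muscle isoforms were lower in the LN pool, 5 of them past the fold threshold. Of the 17 probes of the other isoforms with a value, 8 were lower, 6 of them past the threshold, and 9 were higher, 2 of them past it. The limit of *FBP1* is among those 6, and 16 of the 17 probes were well above background on both arrays. Over all 31986 probes with a value, 50.1% were lower, and 9.44% were past the threshold lower and 9.11% higher. The probes past the threshold lower were thus 5 of 15 for the muscle isoforms and 6 of 17 for the others. The median log2 LN/HN was -0.26 over the 4 muscle isoforms and -0.05 over the 6 other isoforms, beside -0.0033 over all genes. These medians describe the genes and were not tested, since there was 1 array per pool. Over 2 arrays a correlation between genes is always 1 or -1, so no genes of like pattern are named.

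**Figure D4:**
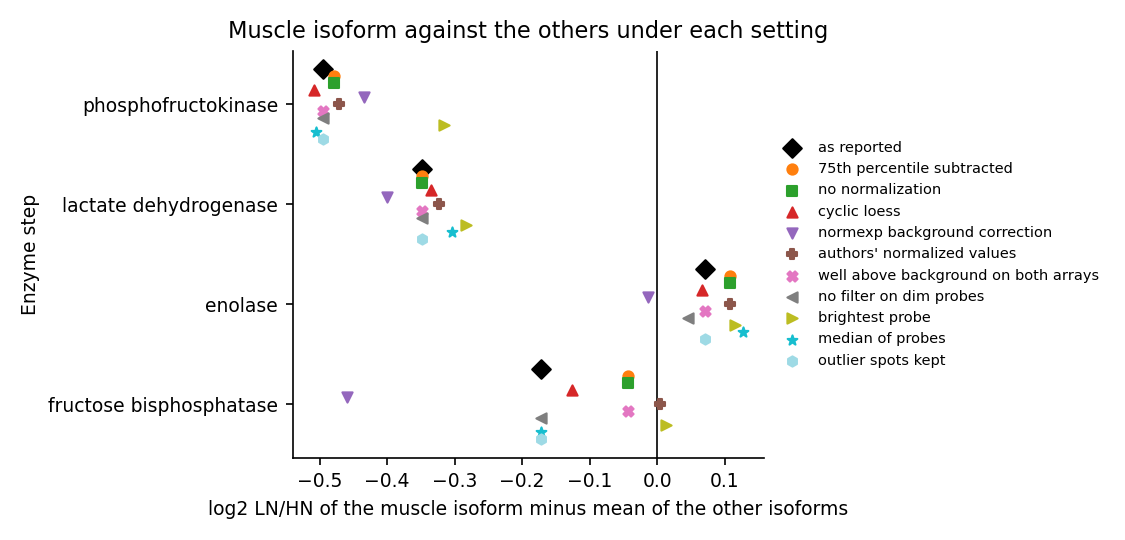
Log2 LN/HN of the muscle isoform minus the mean of the other isoforms (x axis) for each enzyme step (y axis), as reported (black diamonds) and under each of 10 other settings (coloured symbols). All values for phosphofructokinase and lactate dehydrogenase lie to the left of -0.28, whereas those for enolase and fructose bisphosphatase lie on both sides of 0.

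*PFKM* and *FBP2* encode the muscle enzymes that run the same step in opposite directions. Both were lower in the LN pool, and the log2 LN/HN of *FBP2* minus that of *PFKM* was -0.41, with a gap of 0.17 between their probes. *PFKM* itself did not pass the fold threshold, and *FBP2* did.

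The size of the difference varied between probes of the same gene. In 8 isoform genes, several probes were measured on both arrays. Among these, the probe with the highest signal differed least in 4 (*PFKM*, *ENO3*, *ENO1* and *FBP2*), and the probe with the lowest signal differed most in 5. With the brightest probe alone, the log2 LN/HN was -0.03 for *PFKM*, -0.11 for *ENO3*, -0.04 for *ENO1* and -0.09 for *LDHA*, while *FBP2* kept -0.60, *PFKL* 0.41 and *LDHB* 0.19. Quantile normalization also ties the brightest probes of both arrays to each other by rank, so that the top probes of *ALDOA* and *PGAM2* had a log2 LN/HN of exactly 0. Without normalization the 15 probes of the muscle isoforms were again all lower in the LN pool, with a median of -0.27.

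A list of 28 other genes of glycolysis, gluconeogenesis and glucose transport was described in the same way, of which 23 had a value. Of these, 17 were lower and 6 higher in the LN pool, with a median log2 LN/HN of -0.14. Over all 19554 genes, 9906 were lower and 9636 higher, with a median of -0.0033. In the list, 4 genes were past the fold threshold lower and 3 past it higher, beside 9.11% and 8.85% of all genes. Among those 4 lower genes were *PKM* (-0.35, pyruvate kinase), *PFKFB3* (-0.42, which makes the sugar phosphate that activates phosphofructokinase) and *PCK1* (-0.49, cytosolic phosphoenolpyruvate carboxykinase). The 3 probes of *PKM* and of *PFKFB3* were all lower, from -0.46 to -0.20 and from -0.52 to -0.35. *PCK1* had 1 measured probe, and with the normexp background correction the number of genes past the threshold lower was 2.

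Past the threshold higher in the LN pool were *PCK2* (1.26, the mitochondrial carboxykinase, 1 probe), *SLC2A1* (0.80, a widespread glucose transporter) and *SLC2A4* (0.54, the insulin-regulated glucose transporter of muscle and fat). The 4 probes of *SLC2A4* went from 12.77 to 13.23, from 12.47 to 12.88, from 6.76 to 6.97 and from 4.10 to 5.19. All of them were higher in the LN pool, opposite in direction to the muscle isoforms of the enzymes downstream. The 2 measured probes of *SLC2A1* gave 0.73 and 0.87.

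Other enzymes of the list also have several forms. The 4 probes of *PGAM1*, the widespread mutase, lay between -0.38 and 0.05 (mean -0.08) and overlapped with those of the muscle mutase *PGAM2* (-0.14 and 0). *ALDOA*, the muscle aldolase, gave a mean of -0.15 from 4 probes, from -0.29 to 0. *PKLR*, the pyruvate kinase of liver and red cells, gave -0.22 from 1 probe, within the range of *PKM*. The carboxykinases *PCK1* and *PCK2* lay on opposite sides of 0, each with 1 measured probe. *HK1*, a hexokinase, had -0.14, and the accessions of *HK2*, *HK3* and *ALDOC* matched no probe. Of the bifunctional enzymes that set the activator of phosphofructokinase, *PFKFB1* had -0.06, *PFKFB2* 0.07 and *PFKFB4* 0.30, none of them past the fold threshold. *LDHC* had no probe above background, and *LDHD* had a limit of -0.31 from a dim probe.

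**Figure D5:**
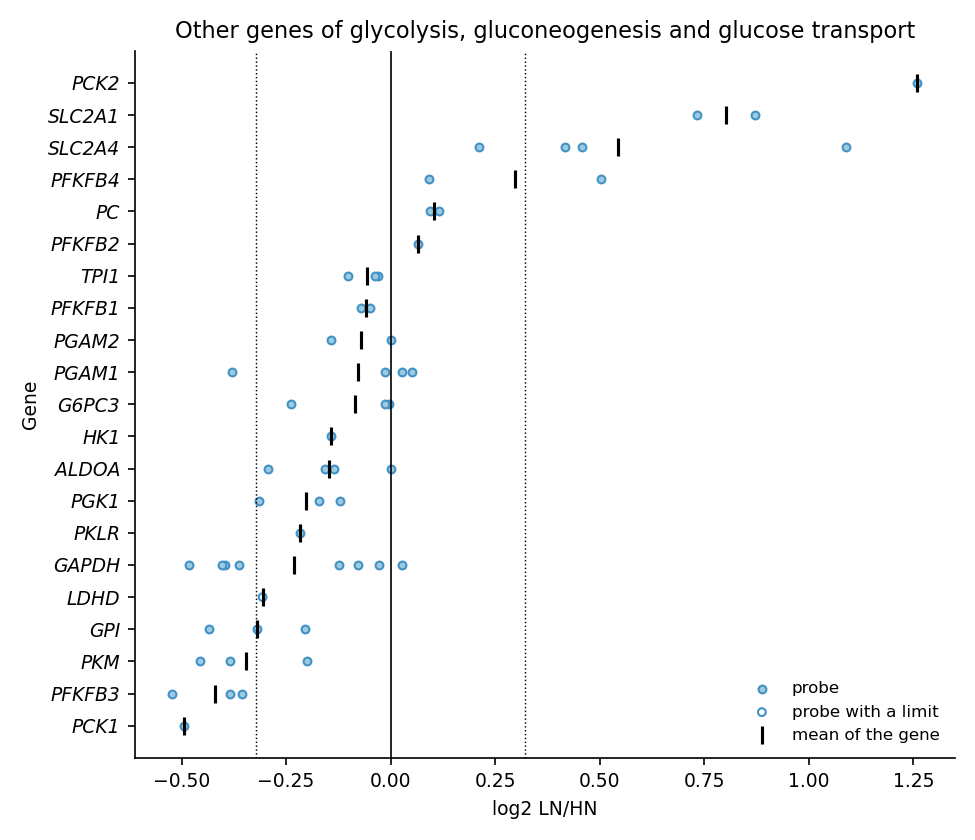
Log2 LN/HN (x axis) of other genes of glycolysis, gluconeogenesis and glucose transport with a value (y axis, ordered by value; genes not reported here are left out), with blue points for probes, open points for limits, black ticks for the mean of a gene and dotted lines at the fold threshold. *PCK1*, *PFKFB3* and *PKM* lie past the fold threshold to the left, and *PCK2*, *SLC2A1* and *SLC2A4* to the right.

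The tissue was checked against markers of muscle and of other cells, and several of these lists differed between the pools along with the isoforms. All 7 skeletal muscle markers had a probe above background, with log2 signals between 13.69 (*MYH1*) and 17.57 (*ACTA1*) in the HN pool. Of them, 6 were lower in the LN pool, with a median log2 LN/HN of -0.22, and their summed signal was 527138 for HN and 477934 for LN. In a whole tissue, fewer muscle fibres and less RNA per fibre cannot be told apart. Among the fast fibre markers, 6 of 8 could be measured and 4 were lower, with *ACTN3* at -0.60 and *MYH1* at -0.50 past the fold threshold, a median of -0.21 and summed signals of 520006 and 498541. *MYH2* was at 0.03, and *TNNC2*, with a signal of 18.35 in both pools, was at exactly 0. The fast fibre list shares *MYH1*, *MYH2* and *TNNT3* with the skeletal muscle list, so the lists are not separate from each other. Of the 6 slow fibre markers, 5 had a value and 4 were lower, none past the fold threshold, with a median of -0.05 and summed signals of 474921 and 454883.

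Markers of other cells were higher in part. All 4 fibroblast markers were higher in the LN pool (median 0.28, summed signals 9793 and 11573), as were 3 of the 4 neutrophil markers with a value, *S100A8*, *S100A9* and *MPO* (median 1.32 and summed signals 221 and 568 over all 4), where *MPO* was not well above background on the HN array. The remaining neutrophil marker, *CXCR2*, was lower and past the fold threshold, with a limit of -0.79, since it was not well above background on the LN array. Of the nerve and Schwann cell markers, 4 of 5 were higher (median 0.13, summed signals 1704 and 1767) while *NEFL* and *NEFM*, which mark neurons, were not above background, and 4 of 5 erythroid markers were lower (median -0.06, summed signals 17177 and 17137). The median was -0.06 for 5 macrophage markers (summed signals 2304 and 2016), 0.22 for 3 adipocyte markers (461 and 570), -0.21 for 4 endothelial markers (2273 and 1871) and 0.0025 for 4 liver markers (723 and 732). The part of these cells in the values of *PFKL*, *PFKP*, *LDHB* and the muscle isoforms was not tested.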

How the data were processed

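Total RNA was labelled with Cy3 and hybridized to 2 arrays, 1 per pool of 4 fetuses. The authors extracted the signals with Agilent Feature Extraction 11.0.1.1 and deposited background-corrected spot intensities, not yet normalized. Quantile-normalized values (GeneSpring GX) of 30027 probes were deposited as well and were read as log2 from their range, since their scale is not given in the sources used here. Flags and other codes deposited per spot were used as filters.

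The log2 intensities of 43803 non-control spots were quantile-normalized, the method that the authors name (limma 3.58.1, R 4.3.3). Spots with an outlier flag (13, none of an isoform gene) were removed and spots of a probe averaged in Python 3.11.15 with numpy 2.4.6 and pandas 2.3.3. Figures were made with matplotlib 3.10.9. Probes well above background on either array were used. A signal that was not well above background was taken at its own value or at the lowest one that was well above it on that array (log2 2.27 for HN and 2.82 for LN), whichever was higher, and a ratio with such a signal on one side is termed a limit. A gene is the mean of its probes. Accessions were matched to symbols through the RefSeq table of ARS-UCD2.0 (26742 of 43652 probes). The array design was annotated on another assembly, so no coordinates are given.

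The normexp alternative used the median spot and background signals with an offset of 50, since the planned mean spot signal was not used here. On a simulated LN against HN pair of 19386 genes, 100% of 135 genes with a set shift of 0.5 or 1 (log2) were recovered. The simulated noise was equal at every signal level, and all probes of an accession were shifted alike. Recovery of smaller shifts, such as those of all isoform genes but *FBP2*, was not tested. The named genes are the 10 isoform genes and, of the pathway list, those past the fold threshold and those with isoforms; some genes of that list are counted but not reported by name here. The members, lists and tests were chosen with earlier results of these data known. With 1 array per pool, the number of arrays limits the precision.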

Additional observations from a re-analysis of the deposited data

How the results depend on the processing

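All 10 isoform genes kept the direction of their log2 LN/HN under each of 10 other settings, and so did the differences of -0.49 for phosphofructokinase and -0.35 for lactate dehydrogenase between the muscle isoform and the others. With the brightest probe of each gene, the difference for phosphofructokinase was -0.32. That for fructose bisphosphatase moved from -0.17 to -0.043 when the 75th percentile was subtracted and also without normalization, to -0.043 with probes well above background on both arrays, to -0.46 after the normexp background correction, to 0.0048 in the authors' normalized values and to 0.013 with the brightest probe. The difference for enolase was -0.014 after the normexp correction and positive otherwise. The count of isoform genes past the fold threshold higher, 1 as reported, was 0 with the 75th percentile and 0 with normexp, which also left 1 isoform gene and 2 other pathway genes past it lower. Over all genes, 2693 were past the fold threshold lower with the 75th percentile, 386 lower and 319 higher with normexp, and 3592 lower and 3251 higher without a filter on dim probes. The share of higher genes among those past the fold threshold, 49.3% as reported, was 30.7% with the 75th percentile and 39.3% without normalization.

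The low signals of *ENO2* and *FBP1* limit their values, as the normexp offset compresses dim probes by construction. Matching probes by a gene name in the scanner files was not run, since none of their names equals the symbol of an isoform gene. No paired analysis was possible because each group has 1 array.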

Other observations

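*GAPDH*, the glyceraldehyde phosphate dehydrogenase often taken as a reference gene, had 8 probes with log2 LN/HN values from -0.48 to 0.03 and a mean of -0.23 ± 0.20 (SD between 8 probes). The 4 probes with the highest signals, from 17.90 to 18.14 in the HN pool, gave values from -0.12 to 0.03, and the other 4, from 14.79 to 16.22, gave values from -0.48 to -0.36. The same division was seen in *ENO1*. *PGK1* (-0.31 to -0.12 over 3 probes) and *GPI* (-0.43 to -0.20 over 3 probes), the phosphoglycerate kinase and the glucose phosphate isomerase, had their lowest values in the probes with the lowest signals as well. *TPI1*, the triose phosphate isomerase, had -0.06 (-0.10 to -0.03 over 3 probes), with the lowest value in its brightest probe. *PC*, the pyruvate carboxylase, had 0.10 (0.09 and 0.11). Of 16 genes of the pathway list with several measured probes, the dimmest probe differed most in 9 and the brightest least in 8.

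Of the genes that serve glucose output from the liver and kidney, *G6PC1* was not above background on either array, and *G6PC3*, the widespread form, lay at -0.08 (mean of 3 probes). The genes of both paragraphs were chosen after their values were seen.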
